A study of Mus musculus with 8 samples.

Results

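Keratin-associated protein genes (Krtap) and keratin genes (Krt) were described on the promoter arrays of a HoxB4 study. The 66 genes were chosen by symbol, as every gene in the annotation of the deposited arrays whose symbol begins with Krtap or with Krt and a digit, and they are 66 of 16908 genes. Of these, 25 were Krtap genes and 41 were Krt genes. Chromatin was taken from hematopoietic progenitors derived from the mouse embryonic stem (ES) cell line B6N-22UTR that overexpressed 3xFLAG-HoxB4, a homeobox transcription factor carrying an epitope tag. Per the design text, c-Kit+CD41+ precursors from embryoid bodies of day 6 were transduced with a retrovirus, grown on OP9 stromal cells, and collected as c-Kit+ cells at day 12 of coculture. Flag-IP DNA (Cy5) was hybridised against input DNA (Cy3), both after T7 RNA polymerase amplification, on 2 promoter arrays with different probes. Each region therefore had 1 array and no replicate, so no test was possible and the values are descriptions. An immunoprecipitation from cells without the tagged protein was not analysed here, and expression arrays of the same series were not used because the files do not pair their probe sets with genes.

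Keratins form the intermediate filaments of epithelia. Each filament pairs a type I with a type II keratin, simple epithelia and the layers of skin use different pairs, and hair and nail have their own. Keratin-associated proteins are small proteins, rich in cysteine or in glycine and tyrosine, that form the matrix around hair keratin filaments. Their genes have a single short exon and lie in clusters. Type I keratin genes lie on mouse chromosome 11 around a Krtap cluster, type II genes and the type I gene Krt18 lie on chromosome 15, and the largest Krtap group measured here lies on chromosome 16.

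The unit used throughout is log2 of Flag-IP over input, centred on the median of the array, so that 0 is the typical probe and 1 is a factor of 2 above it. For each gene the highest median over 3 neighbouring probes (the highest window) and the mean over probes within 500 bp of the start (at least 2 probes) were taken. These values are those for which the families were picked out. Array 2 held every keratin gene and all Krtap genes except the 4 of the Krtap5 group, which were on array 1. Before centring the array medians were 0.06 and 0.07, and the probes named for the families numbered 1845, of which 29 were named for 2 members and 83 also for another gene. Of the 25 Krtap genes 22 had a window and 18 a mean near the start, and all 41 keratin genes had both. The files' own Krtap16-3 and Krtap16-7, together with Krtap5-2, had neither value. Krtap13, Krtap5-1, Krtap5-4 and Krtap9-1 had a window but fewer than 2 probes near the start. Genes are named here by their RefSeq symbols, which changed 8 of the names (Krtap16-1 of the files is Krtap19-2, for example), so that the Krtap16-3 described below is the files' Krtap16-10.

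Promoters are shown for the gene with the highest and the genes with the lowest means near the start in each family among those with an entry, as RefSeq gives them for GRCm38.p6 (250 bases before to 50 after the start, 5′ to 3′). Krt16, which had the highest mean of all keratin genes, had no entry. Capitals mark the letters TAAT on either strand, the core recognised by homeodomains. Overlapping matches run together. Krtap14 lies at chr16:88826096-88826395, minus strand, Krtap21-1 at chr16:89403725-89404024, minus strand, and Krtap19-2 at chr16:88874220-88874519, minus strand. Krt42 lies at chr11:100269902-100270201, minus strand, Krt84 at chr15:101532771-101533070, minus strand, and Krt25 at chr11:99322902-99323201, minus strand.
Krtap14: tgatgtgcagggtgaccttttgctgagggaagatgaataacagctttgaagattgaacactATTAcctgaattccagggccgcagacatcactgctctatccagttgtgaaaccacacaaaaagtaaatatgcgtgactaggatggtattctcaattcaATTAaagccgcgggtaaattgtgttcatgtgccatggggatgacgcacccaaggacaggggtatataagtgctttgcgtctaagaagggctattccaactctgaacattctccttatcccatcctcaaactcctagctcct
Krtap21-1: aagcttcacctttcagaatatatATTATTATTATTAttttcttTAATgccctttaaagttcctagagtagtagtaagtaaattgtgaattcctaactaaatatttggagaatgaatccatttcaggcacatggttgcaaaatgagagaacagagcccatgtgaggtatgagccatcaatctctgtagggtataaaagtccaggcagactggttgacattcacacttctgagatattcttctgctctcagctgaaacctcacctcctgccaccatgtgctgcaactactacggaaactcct
Krtap19-2: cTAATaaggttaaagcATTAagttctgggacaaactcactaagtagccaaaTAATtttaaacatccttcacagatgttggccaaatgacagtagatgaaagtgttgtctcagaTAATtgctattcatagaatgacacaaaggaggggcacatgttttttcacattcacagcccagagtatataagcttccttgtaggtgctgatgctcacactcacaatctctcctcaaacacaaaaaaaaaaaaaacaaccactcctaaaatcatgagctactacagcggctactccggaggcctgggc
Krt42: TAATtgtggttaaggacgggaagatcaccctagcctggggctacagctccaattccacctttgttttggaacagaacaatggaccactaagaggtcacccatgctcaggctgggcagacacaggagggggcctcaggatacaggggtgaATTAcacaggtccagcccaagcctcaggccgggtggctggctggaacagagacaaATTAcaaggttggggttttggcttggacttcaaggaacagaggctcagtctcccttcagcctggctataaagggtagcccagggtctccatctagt
Krt84: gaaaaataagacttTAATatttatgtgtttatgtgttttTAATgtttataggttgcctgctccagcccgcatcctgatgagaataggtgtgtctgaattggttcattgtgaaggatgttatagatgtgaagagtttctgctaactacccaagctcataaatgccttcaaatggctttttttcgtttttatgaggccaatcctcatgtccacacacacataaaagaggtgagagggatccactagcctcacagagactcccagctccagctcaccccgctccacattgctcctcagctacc
Krt25: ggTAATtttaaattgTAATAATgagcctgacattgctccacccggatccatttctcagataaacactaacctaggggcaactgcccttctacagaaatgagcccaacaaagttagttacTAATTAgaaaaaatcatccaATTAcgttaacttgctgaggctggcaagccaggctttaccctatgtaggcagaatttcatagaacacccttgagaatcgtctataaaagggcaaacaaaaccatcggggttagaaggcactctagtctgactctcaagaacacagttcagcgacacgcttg

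The letters TAAT occurred at 2 positions in the Krtap14 promoter, 5 in Krtap21-1, 4 in Krtap19-2, 3 in Krt42, 2 in Krt84 and 6 in Krt25. The genes with the lowest means thus included promoters with more matches (Krtap21-1, Krt25) and with few (Krt84). Among 21 Krtap promoters with an entry 20 held TAAT or its reverse complement (95.2%), as did 22 of 28 Krt promoters (78.6%) and 58.3% of 27025 promoters in the table. The median number of matches was 4 in Krtap promoters, 2 in Krt promoters and 1 in the table. The letters TGATTNAT, a site of Hox proteins with their Pbx partners, occurred on either strand in 1 Krtap promoter (4.76%), 2 Krt promoters (7.14%) and 3.36% of the table. TATAAA, the letters of the TATA box, occurred anywhere on either strand in 14 of 21 Krtap promoters (66.7%), 14 of 28 Krt promoters and 14.2% of the table. On the forward strand and beginning 20 to 45 bases before the start, they occurred in 7 Krtap promoters (33.3%) and 9 Krt promoters (32.1%). The share in the table was 2.36%, so by position the 2 families had similar shares. Among the printed promoters, a forward match lay 61 bases before the start in Krtap21-1, 30 bases before it in Krt25 and 19 bases after it in Krt42. Matches on the opposite strand, such as that in Krt84, are not in this list. These are matches of letters in windows of equal length, and no binding site is claimed from them. The printed Krtap promoters held 38.67% to 44.67% GC and the printed Krt promoters 42.33% to 54.0%. The part of base composition in the counts of matches was not tested.

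Flag-IP signal over input was low at Krtap genes, and keratin genes lay nearer to the median of all genes. The median highest window was 0.09 over 22 Krtap genes and 0.70 over 41 keratin genes, against 0.89 over 16663 genes. A gene with more probes has more windows from which the highest is taken. The median number of probes per gene was 21 in Krtap genes and 33 in keratin genes, against 28 over all genes. The part of probe number in the highest windows was not tested. Near the start the median was -0.90 over 18 Krtap genes and 0.08 over 41 keratin genes, against 0.33 over 15826 genes. The medians of the families differed by -0.61 for the highest window and by -0.98 near the start (Krtap minus Krt). The lowest window per gene had a median of -1.73 in Krtap genes and -1.13 in keratin genes, against -1.08 over all genes. A probe's brightness moved with these values. The median log2 signal near the start was 8.59 for Flag-IP and 9.25 for input in Krtap genes, 9.98 for Flag-IP and 9.80 for input in keratin genes, and 10.58 for Flag-IP and 10.02 for input over all genes. The part of input brightness in the difference was not tested. The brightness trend of each array was taken over the mean of the log2 Flag-IP and input signals. Flag-IP itself enters that mean, so removing the trend is no correction for input brightness alone. With the trend removed, the medians near the start were -0.45 in Krtap genes and 0.18 in keratin genes, against 0.20 over all genes. The median highest windows were then 0.36 in Krtap genes and 0.93 in keratin genes, against 0.81 over all genes, so that keratin genes lay above all genes under that setting and below them without it.

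**Figure D1:**
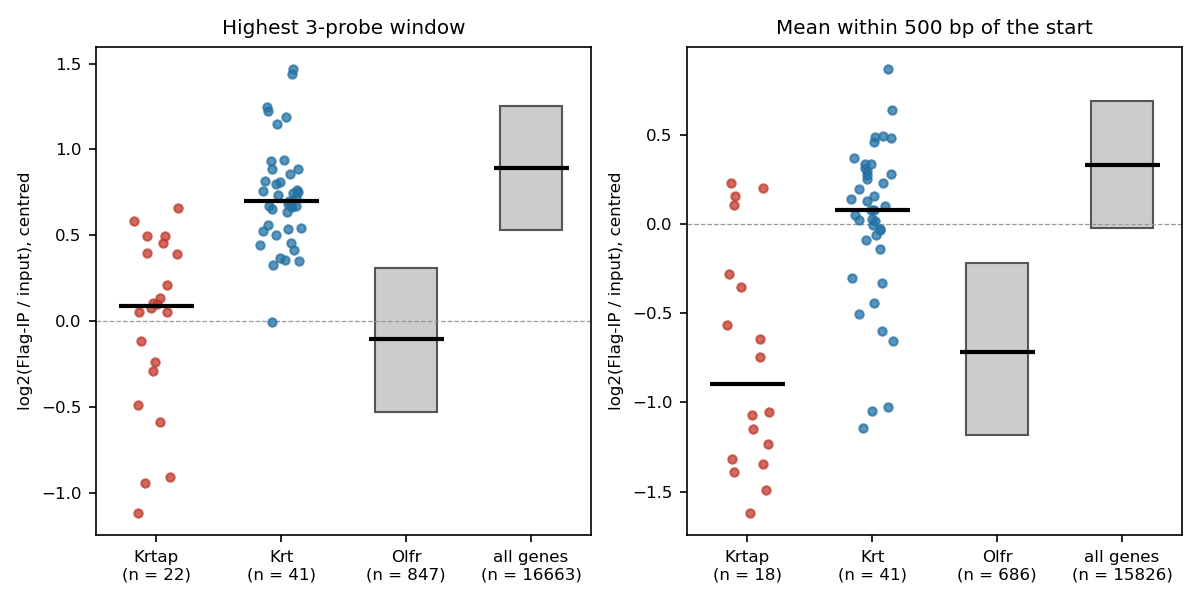
Highest 3-probe window per gene (left) and mean within 500 bp of the start (right), as centred log2 of Flag-IP over input. Points are genes of the Krtap and Krt families, black bars are medians, and grey boxes span the quartiles of the olfactory receptor genes (Olfr) and of all genes. The Krtap medians of 0.09 and -0.90 lie below the Krt medians of 0.70 and 0.08.

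No Krtap gene and 6 of 41 keratin genes had a highest window of at least 1, which 41.7% of all genes reached. None of either family reached 2, which 2.89% of all genes reached. The count of keratin genes rests on the scale: with the brightness trend removed 17 of 41 keratin genes (41.5%) and 2 of 22 Krtap genes (9.09%) reached 1, against 33.9% of all genes. A highest window below 0, meaning that every window of the gene lay below the typical probe, was found in 8 of 22 Krtap genes (36.4%) and in 1 of 41 keratin genes, Krt39, against 6.9% of all genes. Near the start, none of 18 Krtap genes and 2 of 41 keratin genes had a mean of at least 0.5, against 37.0% of all genes. A mean of -0.5 or lower was found in 12 of 18 Krtap genes (66.7%) and 6 of 41 keratin genes (14.6%), against 10.2% of all genes. With the brightness trend removed, that count was 8 of 18 Krtap genes and 0 of 41 keratin genes, against 5.32% of all genes. With normexp background correction it was 8 and 3 genes, against 5.48%.

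The genes nearest these limits show how the counts were made. Krt14 (1.15) was the lowest keratin gene above 1 and Krt19 (0.94) the highest below it. Krt42 (0.64) lay inside the limit of 0.5 near the start and Krt74 (0.49) outside it. Krt40 (-0.51) lay inside the limit of -0.5 and Krt222 (-0.44) outside it. Among Krtap genes, Krtap19-5 (-0.57) lay inside it and Krtap19-3 (-0.35) outside it. Krtap6-2 (-0.11) was the Krtap gene nearest below 0 by its highest window, and Krtap5-1 and Krtap5-4, which share their highest window, lay nearest above it (0.05).

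The lowest values were found in the Krtap6, Krtap19 and Krtap21 families of chromosome 16, which are rich in glycine and tyrosine. The 9 genes of Krtap6, Krtap19 and Krtap21 had a median of -1.32 near the start and -0.29 for the highest window. Of the 9, 7 lay at -0.5 or lower near the start, against 10.2% of all genes. Krtap21-1 had the lowest mean of all 66 genes, -1.62, from probes at -2.39, -2.06 and -0.41 that lay 362, 239 and 93 bp before the start. Both probes near the Krtap19-2 start were low (-1.30 and -1.68, mean -1.49). Krtap6-5 had probes at -1.56 and -1.22 (mean -1.39), and Krtap19-1 had probes at -1.77, -0.91 and -1.36 (mean -1.34). Krtap6-1 had the lowest highest window, -1.12, so no window of this gene came near the typical probe, and its 4 probes near the start ran from -2.17 to -0.47 (mean -1.32). Krtap19-3 (-0.35) and Krtap19-4, of the same group, were the exceptions. Krtap19-4 had 2 probes before the start at -0.40 and -0.66 and 2 probes after it at 1.09 and 0.40, which gave a mean of 0.11. Its input signal near the start was the brightest of the 9 (log2 11.10, group median 9.20). Krtap21-1 had a mean of -0.83 with normexp and -1.54 with the brightness trend removed, and Krtap6-1 had -0.87 and -0.47 under the same settings.

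The other Krtap genes of chromosome 16 ran from -1.23 to 0.23 near the start. They were set apart by family number alone. Their protein composition was not checked, so they may include genes rich in glycine and tyrosine. Krtap14 had the highest mean of the family, 0.23, from 7 probes between -0.28 and 0.86. Krtap13-1 had the highest window of the family, 0.66, which lay 10 bp before the start, and its 5 probes near the start ran from -0.87 to 0.82 (mean 0.16). In the files' own coordinates, for which the sources used here name no build, this window spans positions 88617542 to 88617838 of chromosome 16. Krtap15, the neighbour of Krtap14, shares with it a highest window of 0.50, yet had a mean of -0.75 at its own start. Krtap16-3 had a mean of -1.23, with all 4 probes between -1.77 and -0.88. The median of the 5 genes with a window was 0.50, and that of the 4 with a mean near the start was -0.29.

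Away from chromosome 16 the Krtap genes were few. On chromosome 11, Krtap3-2 (-1.15), Krtap4-7 (-1.07) and Krtap3-3 (-0.64) all lay below -0.5 near the start. Krtap3-2 had probes at -1.12, -2.30 and -1.70 before the start, of which the one at -2.30 was not well above background, and 1 probe at 0.53 after it, and its mean was -0.37 with normexp. Krtap12-1 on chromosome 10 had a mean of 0.20 from 2 probes and a highest window of 0.58, and Krtap5-5 on chromosome 7 had a mean of -0.28. Leaving out chromosome 16 gave a Krtap median of -0.64 near the start over the 5 genes with a mean, and of 0.12 for the highest window.

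Among keratins, the epithelial genes lay higher than the hair genes of type I. The 11 type II epithelial keratins had a median of 0.33 near the start and the 13 type I epithelial keratins one of 0.16, and none of these 24 genes lay at -0.5 or lower. The 7 type I hair keratins had a median of -0.51, with 4 of the 7 at -0.5 or lower, where 10.2% of all genes lay. None of these 4 stayed at -0.5 or lower with the brightness trend removed (Krt31 -0.28, Krt33a -0.46, Krt39 -0.46, Krt40 -0.24), and with normexp only Krt31 did (-0.64). The 4 type II hair keratins had a median of -0.03, and the 4 type II keratins of the inner root sheath, the layer that moulds the growing hair, had one of 0.02. Of the 2 type I inner root sheath keratins Krt25 lay at -1.05 and Krt27 at -0.30. These groups are small, and their difference was not tested.

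Krt16, a keratin of stressed and thickened epidermis, had the highest mean near the start, 0.87, from 3 probes at 0.74, 1.16 and 0.70, all before the start. The probe at 1.16 was not well above background. Krt42, a type I keratin, followed at 0.64, with all 6 probes between 0.37 and 1.28. Krt74 (0.49), Krt78 (0.49) and Krt75 (0.48), all of type II, came next. The values of Krt16 and Krt42 are within the upper part of all genes, where 37.0% reached 0.5, and Krt16 lay at percentile 83.6 of all genes. With normexp Krt16 had 0.34 and Krt42 0.66, and with the brightness trend removed Krt16 had 1.14 and Krt42 0.34, so that each setting placed only 1 of the pair above 0.5.

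Krt84, a hair keratin of type II, had the lowest mean of the keratins, -1.14. Its 3 probes before the start were at -1.66, -2.23 and -1.95, and its 2 probes after the start were at 0.16 and -0.03. Krt25 had all 5 probes below 0, from -0.37 to -2.55, and the lowest of them was not well above background. Krt31, a hair cortex keratin, had all 5 probes below 0 as well, from -0.31 to -1.81 (mean -1.03), again with the lowest not well above background. Krt33a (-0.65), Krt39 (-0.60) and Krt40 (-0.51), all type I hair keratins, completed the keratins at -0.5 or lower. In Krt40 the 3 probes farthest before the start lay between -1.88 and -1.14, and the other 3, from 18 bp before the start onward, between 0.39 and 0.51. With the brightness trend removed Krt84 had a mean of -0.42, Krt25 one of -0.48 and Krt31 one of -0.28, and with normexp the values were -0.62, -0.50 and -0.64 in the same order.

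**Figure D2:**
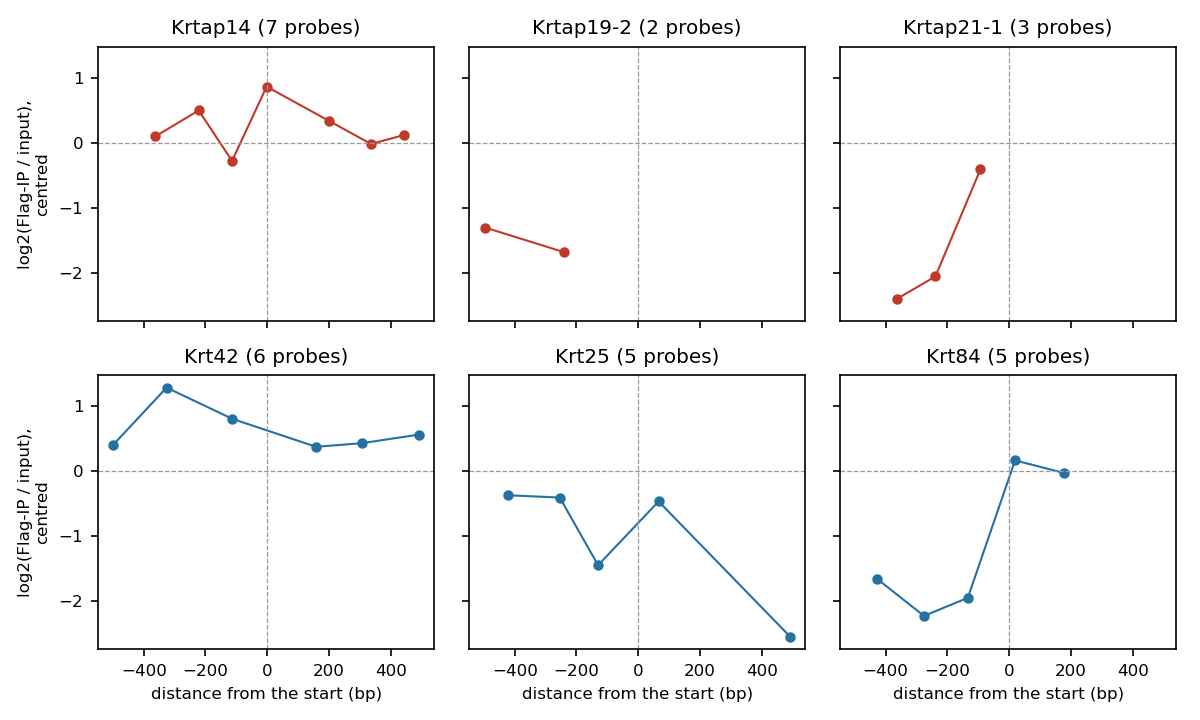
Centred log2 of Flag-IP over input of each probe within 500 bp of the start, against its distance from the start in bp, for 3 Krtap genes (red) and 3 Krt genes (blue). Each point is 1 probe on 1 array. Krt42 stays above 0 at all 6 probes, whereas Krt84 lies below -1.6 at the 3 probes before the start and near 0 at the 2 after it.

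The highest windows of keratins mostly lay away from the start. Krt79, a keratin of the hair follicle opening, had the highest, 1.47, with its middle probe at -4235 bp from the start (positions 101772423 to 101772753 of chromosome 15 in the files' coordinates). Krt8, the type II keratin of simple epithelia, followed with 1.44 at -3384 bp, where its probes lay between 1.38 and 1.68. Krt35 (1.25, at -1681 bp) is a hair keratin, Krt73 (1.22, at 2144 bp) an inner root sheath keratin and Krt75 (1.19, at 807 bp) a keratin of the follicle's companion layer. Krt14 (1.15, at 1952 bp) is the type I keratin of basal epidermal cells. With normexp background correction Krt8 kept a value of 1.35 while Krt79 had 0.78, Krt35 0.98, Krt75 0.81, Krt73 0.51 and Krt14 0.44. With the brightness trend removed Krt8 had 1.42 and Krt79 1.76. The highest window lay within 500 bp of the start in 6 of 22 Krtap genes (27.3%) and 10 of 41 keratin genes (24.4%), against 36.0% of all genes. The lowest window lay there in 5 of 22 Krtap genes (22.7%) and 3 of 41 keratin genes (7.32%), against 6.75% of all genes. At the other end, Krt39 (-0.01), Krt33a (0.33), Krt32 (0.35), Krt6a (0.36) and Krt25 (0.37) had the lowest highest windows among keratins.

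The simple epithelial keratins Krt7, Krt8, Krt18, Krt19 and Krt20 are keratins of single-layered epithelia. Their means near the start were 0.37, 0.23, 0.30, -0.03 and -0.09 in that order, and their median was 0.23. Their highest windows were 0.68, 1.44, 0.54, 0.94 and 0.70 in the same order. The mean of Krt8 rests on 2 probes (0.31 and 0.15). Krt18 had the brightest input of all members near the start (log2 12.08), from probes at 0.27, 0.00 and 0.63.

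Along the gene, Krtap probes lay below both keratin probes and the probes of all genes in each of 8 distance intervals. Between -6000 and -4000 bp from the start the mean was -1.01 for Krtap genes and -0.29 for keratin genes, against -0.32 for all genes. In the last 500 bp before the start it was -0.94 and -0.09, against 0.20. In the first 500 bp after the start it was -0.28 and 0.17, against 0.39. From 1000 to 2500 bp after the start it was -0.93 and -0.13, against -0.12. The low Krtap values thus extended from -6000 to 2500 bp around the start and were less low just after it. Over all Krtap probes the mean log2 input signal was 9.80 in the first 500 bp after the start and 9.26 in the 500 bp before it, and its part in the step was not tested.

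**Figure D3:**
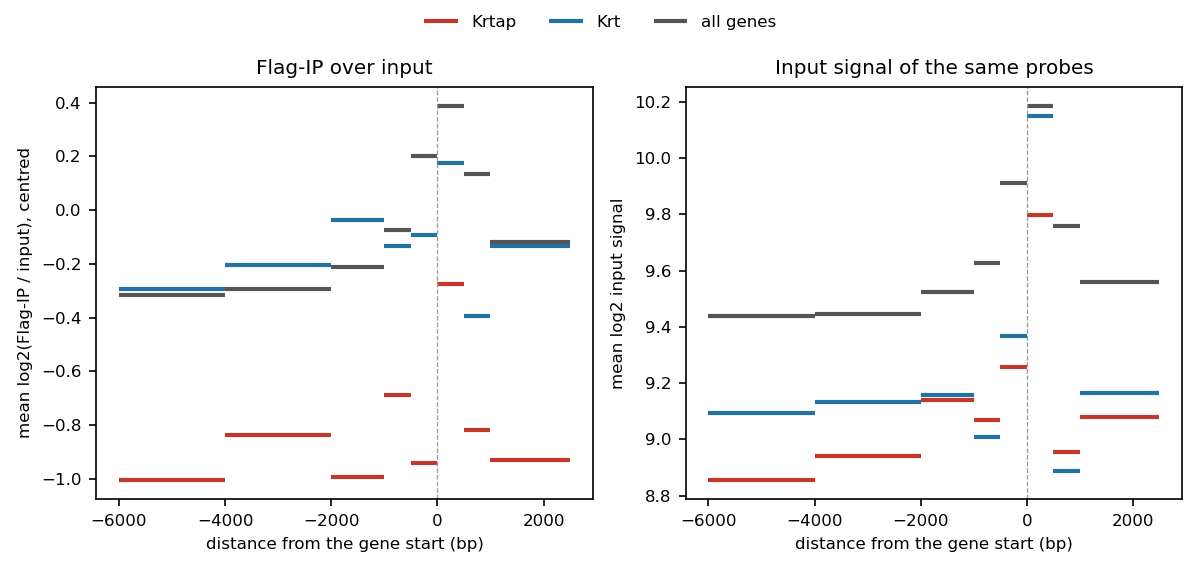
Mean centred log2 of Flag-IP over input (left) and mean log2 input signal (right) of the probes in each distance interval from the gene start, in bp, for Krtap genes, Krt genes and all genes. Each horizontal line spans 1 interval. The Krtap line lies below the other lines in all 8 intervals of the left panel and reaches its highest value, -0.28, in the first 500 bp after the start.

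The side of the start was compared within genes that had probes on both sides within 500 bp. The 500 bp after the start were higher than the 500 bp before it in 10 of 14 Krtap genes (71.4%) and 24 of 36 keratin genes (66.7%), against 58.0% of 14693 genes. In the Krtap genes the input signal was brighter after the start in 7 of the 14, with a median log2 of 9.07 after it and 9.26 before it. The median difference (after minus before) was 0.67 in Krtap genes and 0.22 in keratin genes, against 0.12 over all genes. It was largest in Krtap3-2 (2.24) and Krt84 (2.01), whereas Krt85 went the other way (-2.49) through 1 very bright probe after the start (Flag-IP 12132 and input 36652 in signal units).

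The Krtap median near the start differed with the distance used, which also changed the genes measured. Within 250 bp only 7 Krtap genes had 2 probes, and their median was 0.13, against 0.13 over 34 keratin genes and 0.37 over all genes, so the families' medians differed by -0.002 there. These 7 genes ran from -1.23 (Krtap21-1) to 0.74 (Krtap19-4). Krtap14, Krtap13-1 and Krtap19-4, which had positive means within 500 bp, are among them, and Krtap6-1, Krtap6-5, Krtap19-1 and Krtap19-2 are not. Krtap19-5 had a mean of 0.13 within 250 bp and of -0.57 within 500 bp. Counting all probes, also those of genes with only 1, the mean within 250 bp was -0.45 over 30 Krtap probes of 18 genes and 0.05 over 100 keratin probes, against 0.37 over all genes. At 250 to 500 bp it was -0.89 over 41 Krtap probes and -0.02 over 95 keratin probes, against 0.23. Within genes that had probes in both bands, the nearer band was the higher one in 9 of 17 Krtap genes (52.9%) and 20 of 40 keratin genes, against 58.0% of all genes.

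The neighbours of the clusters did not share the low values throughout. On chromosome 11 Smarce1 before the cluster had a mean of 0.65 near its start and Eif1 after it one of 1.00. The keratins flanking the Krtap cluster, Krt40 and Krt33a, lay at -0.51 and -0.65. Beyond them lay Krt39 (-0.60) on one side and Krt34 (0.13) and Krt31 (-1.03) on the other. Toward Eif1, Krt16, Krt17 and Krt42 lay between 0.28 and 0.87, and Krt14 beside Krt16 lay at -0.33. On chromosome 15 Atg101 had 1.49 and Eif4b -0.09, and among 20 keratin genes between them 1, Krt84, lay at -0.5 or lower. On chromosome 16 Cldn8 had -0.83 on one side of the cluster and Tiam1 0.03 on the other.

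**Figure D4:**
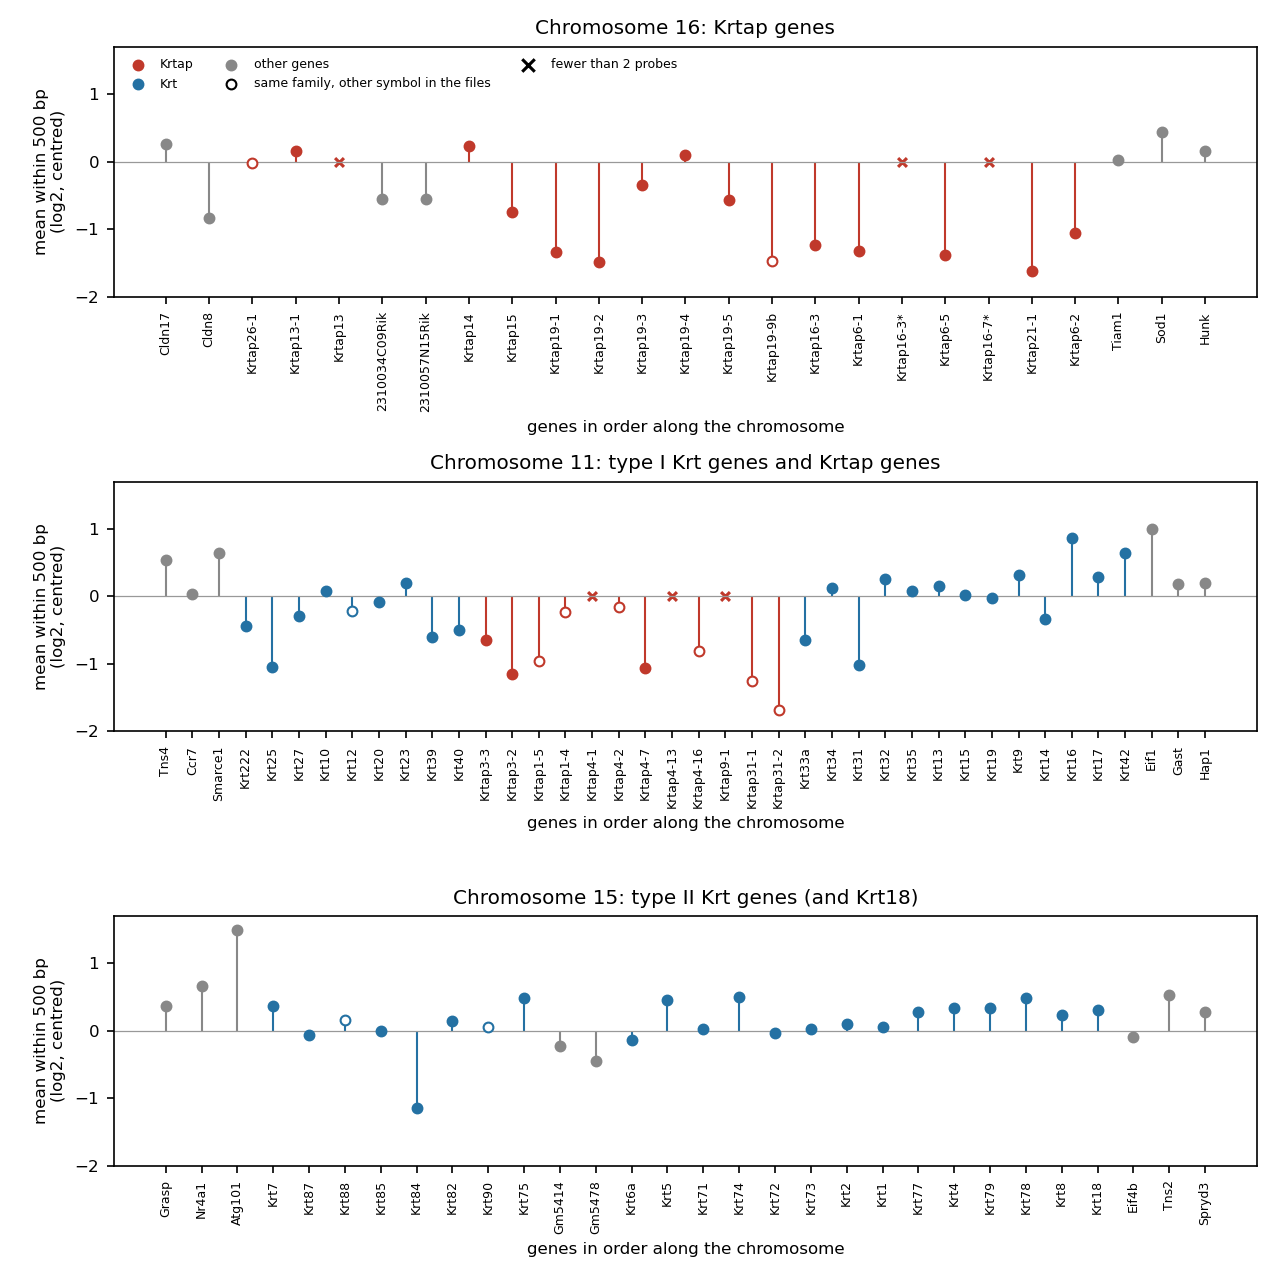
Mean within 500 bp of the start (log2 of Flag-IP over input, centred) for genes in their order along chromosomes 16, 11 and 15, with the neighbouring genes on either side in grey. Filled red and blue points are the Krtap and Krt genes chosen by symbol, open points are genes of the same families that the files list under other symbols, crosses mark genes with fewer than 2 probes, and an asterisk marks a symbol kept as in the files. On chromosome 11 all Krtap genes with a mean lie below 0, and the highest Krt genes, Krt16 and Krt42, lie near the far end.

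Other clustered genes restricted to a tissue gave values like those of Krtap genes. The olfactory receptor genes had a median of -0.72 near the start over 686 genes and of -0.10 for the highest window over 847 genes. Vomeronasal and taste receptor genes had medians of -0.88 over 106 genes and -0.16 over 140 genes. At -0.5 or lower near the start were 12 of 18 Krtap genes, 425 of 686 olfactory receptor genes and 71 of 106 vomeronasal and taste receptor genes. Over all genes the share was 10.2%. Nothing particular to Krtap genes among clustered families is claimed from these values.

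Lists of genes that work with keratins differed among themselves, beside a median of 0.33 near the start and 10.2% of genes at -0.5 or lower over all genes. The 15 other intermediate filament genes had a median of 0.34 near the start and none at -0.5 or lower. Vim, the vimentin of mesenchymal and blood cells, led them with 0.82 and a highest window of 2.35, and Bfsp1, a lens filament gene, was lowest with -0.45 and 0.40. The desmosome and plakin genes, which anchor keratin filaments at cell junctions, had a median of 0.10 over 13 genes, with 3 at -0.5 or lower. Pkp1 was highest of them (0.99) and Dsg4, the desmoglein of hair, lowest (-0.97). The 14 cornified envelope and hair shaft genes had a median of -0.20 with 4 at -0.5 or lower, from S100a3 (0.39) to Sprr1b (-1.54). The 13 regulators of keratin and hair genes had a median of 0.06, with 2 at -0.5 or lower, a share near that of all genes. Vdr, the vitamin D receptor, was highest of these near the start (1.00) and Trp63, a master regulator of epidermis, lowest (-1.48), while the homeobox gene Msx1 had the highest window (2.21). Hoxc13, a Hox gene that controls hair keratin genes and is named here for that role, had 0.06 near the start and a highest window of 0.69.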

How the data were processed

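ChIP DNA was measured on 2 two-colour Agilent promoter arrays. The intensities used are the deposited processed signals, from which Agilent Feature Extraction 10.1.1.1 had subtracted background and in which it had scaled each dye linearly, per the file headers. The same files' mean and background intensities, the log10 ratio column of the deposited files and the value tables (also log10, with medians of 0.0181 and 0.0207, so not centred) served as alternatives. For the probe coordinates the sources used here name no genome build. On each array 95.3% of probes were well above background in both channels, and no probe was saturated. The median share of such probes per gene was 88.9% in Krtap genes and 94.7% in keratin genes, against 97.1% over all genes. The number of arrays limits the precision.

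The log2 ratio of Flag-IP to input was taken at 237176 and 237147 probes, leaving out control spots and 19 and 38 outlier-marked probes, and centred on each array's median. Probes without a mapped position were left out afterwards. Windows joined 3 probes whose successive starts lay at most 1000 bp apart. Scripts ran in Python 3.11.15 with pandas 2.3.3, and normexp (offset 50) in limma 3.58.1 under R 4.3.3. The window and mean calculations were run on simulated data in which all probes of a chosen gene were set around the same level. Such data cannot show an error in the distance limits.

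Genes were taken from the files' annotation and named through RefSeq tables of GRCm38.p6, by accession, then symbol, then synonym. Members and gene lists were chosen with earlier results of these data known. Genes were named by rule: the 8 highest and 5 lowest by highest window and the 5 highest and lowest by mean near the start in each family, the simple epithelial keratins, the extremes of each group and the genes nearest a limit. Krtap genes were to be grouped by protein composition. A protein table was not used here, so family number and chromosome replaced it, a choice made after values were seen. GC content was to be compared between promoters, but only 68.3% of keratin genes and 78.7% of all genes with a mean near the start had a promoter entry, so that check is void.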

Additional observations from a re-analysis of the deposited data

How the results depend on the processing

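No paired analysis was possible because the results come from no test and each region was measured on 1 array. The difference of the family medians (Krtap minus Krt) kept its sign under each alternative tried. For the highest window it ran from -0.85 with windows of 5 probes to -0.57 with the brightness trend removed. Near the start it ran from -1.13 with array 2 alone to -0.62 with normexp, except that it was -0.002 within 250 bp, where the Krtap median was 0.127 over 7 genes in place of -0.899 over 18. Krtap19-5 changed sign there (0.127 in place of -0.566), its 2 low probes lying more than 250 bp from the start. Removing the brightness trend moved the median highest window of keratin genes to 0.929, above the 0.812 of all genes (0.700 against 0.889 without that step), and their share at 1 or above to 41.5%, against 33.9% of all genes. Windows of 5 probes moved the median highest window to -0.361 in Krtap genes and 0.49 in keratin genes. The cause of these shifts was not tested. The deposited ratio column and value table gave the same medians as the processed signals. Of the single-gene values under the alternatives, 167 moved by less than the SD of the gene's probes near its start. Another 24 moved by more and 1 changed sign. The 167 include the deposited ratio column and value table, which repeated each single-gene value, so this count does not measure stability. The 24 came mostly from normexp and from removing the brightness trend. The settings with array 2 alone, with Krtap genes outside chromosome 16 and with 1 gene per shared window were chosen after seeing the data.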

Other observations

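The files list 14 further genes of the families under symbols that do not begin with Krt or Krtap, and RefSeq names them as 11 Krtap and 3 Krt genes. They were not among the 66 genes chosen by symbol. Near the start the median of the 8 such Krtap genes with a mean was -0.88, and that of the 3 Krt genes was 0.05. Krtap31-2 was lowest (-1.68), followed by Krtap19-9b (-1.47), Krtap31-1 (-1.26) and Krtap1-5 (-0.96). Of the 8, 5 lay at -0.5 or lower, against 10.2% of all genes. Krtap26-1 was highest near the start (-0.02). For the highest window the median of 10 such Krtap genes was 0.17. Krtap10-10 on chromosome 10 reached 1.31, above each of the 22 Krtap genes chosen by symbol, although it had no probe within 500 bp of its start. Krt12, the type I keratin of the cornea, had a highest window of 1.24 and a mean of -0.21 near the start, and Krt88 had 1.05 and 0.16. These genes were measured on the same arrays and in the same clusters as the others, so they are no independent replicate.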
